A study of Mus musculus with 18 samples.

Results

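Mast cells without the receptor ST2 were set against wild-type mast cells after both had been exposed to interleukin 33 (IL-33), the ligand of ST2, for 4 h. The comparison rests on 3 arrays of ST2KO cells with IL-33 and 3 arrays of WT cells with IL-33, 6 of the 18 arrays of the series, and covers each of the 10529 genes detected. The cells were cultured from the marrow of C57BL/6J mice, 4 to 6 weeks of age, of genotype ST2KO or wild type (WT). The 12 other arrays hold the same 2 genotypes left unstimulated or activated through IgE for 4 h, 3 arrays each, and show whether the genotypes also differed without IL-33. The IL-33 dose, the culture conditions, the construction of the knockout allele and whether arrays came from separate mice are not given in the sources used here, so a p-value here covers the variation between arrays of a group, which may be technical. Culture from marrow is also a limit of the model: the cells had not matured in a tissue.

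IL-33 is a cytokine of the IL-1 family that is released from damaged epithelium and stroma. It binds ST2, encoded by Il1rl1, which pairs with the shared subunit encoded by Il1rap. The pair recruits the adaptor MyD88 and the IRAK kinases, and the signal runs through TRAF6 to the MAP kinases and to NF-kB, a family of transcription factors held in the cytoplasm by inhibitors of the IkB family. Mast cells carry high levels of ST2 and answer IL-33 mainly with cytokines and chemokines, with less release of granules than IgE causes.

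Gene expression was read as the intensity of bead-array probes, normalized and given on a log2 scale, on which a difference of 1 is a 2-fold difference. The array numbered 3 stood apart in every group: its correlation with array 1, taken over genes that are no independent replicates, was 0.936 to 0.968, against 0.992 to 0.994 between arrays 1 and 2. Both genotypes share this, so results that change with it are also given with the replicate number as a block, which compares arrays of the same number. Of 30 mast cell genes with a probe, 28 were detected on at least 1 of the 6 IL-33 arrays. The summed intensity of the 27 that were tested was 231210 to 258600 on the ST2KO arrays and 273880 to 290340 on the WT arrays. Il1rl1 has no probe under its name and was not analysed here, so the deleted gene could not be used to check the ST2KO and WT labels.

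Exposed to IL-33, ST2KO cells had less RNA than WT cells of 15 of 25 NF-kB genes, 7 of 16 chemokine genes and 7 of 22 cytokine genes. The higher genes were more numerous, with smaller differences. Of 10529 genes, 540 were lower and 677 higher in ST2KO IL-33 than in WT IL-33 arrays (limma, Benjamini-Hochberg adjusted p under 0.05), which is 5.13% and 6.43% of the genes tested and 11.6% together. At least 2-fold differences were found for 261 lower and 249 higher genes (2.48% and 2.36%), whereas at least 4-fold differences were found for 86 lower and 15 higher genes. The 3 ST2KO arrays did not overlap the 3 WT arrays for 526 of the 540 lower genes and 658 of the 677 higher genes. Of all genes tested, 11.3% were lower and 13.9% higher without overlap. The called genes were chosen by the contrast of these same arrays, so their separation is a description and no further support. Among the lower genes, 33 were not detected on any ST2KO IL-33 array, and 28 of these were detected on all 3 WT IL-33 arrays. With the replicate block 1294 genes were lower and 1622 higher, and these included all 1217 in the same direction. The count of 1217 fell to 573 without WT IL-33 replicate 1, 598 without WT IL-33 replicate 2 and 329 in the 6 IL-33 arrays alone, and was 3892 without the arrays numbered 3. The higher genes made up 55.6% of the calls, whereas median scaling of the arrays gave 71.3% and a fit of the 6 IL-33 arrays alone 40.4%.

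**Figure D1:**
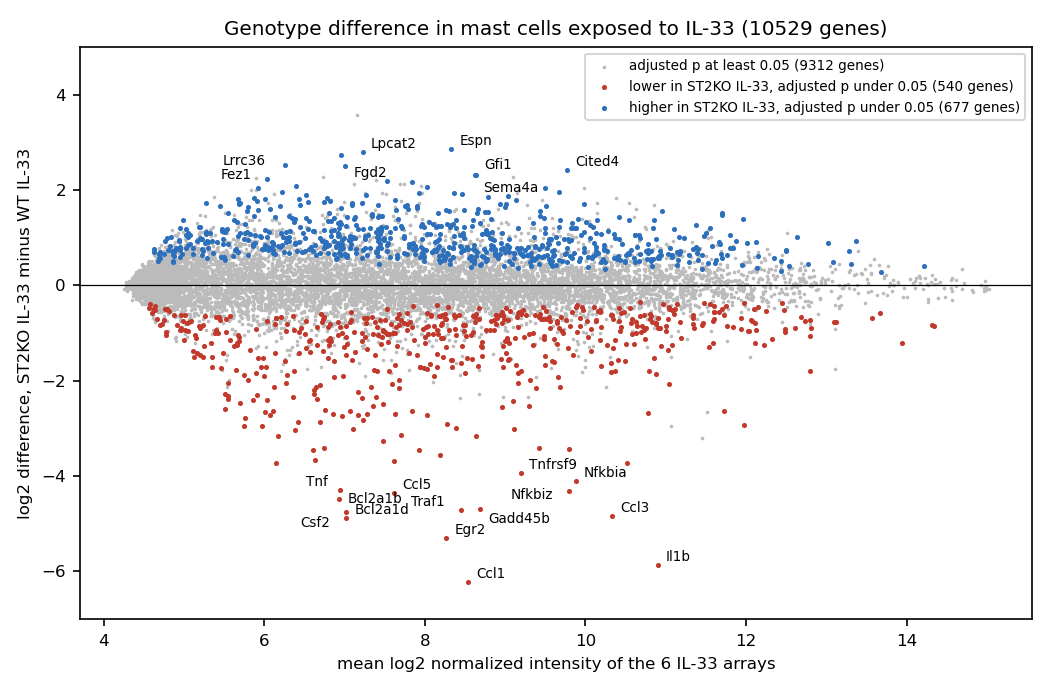
Genotype difference of each of the 10529 genes (vertical axis, log2 ST2KO IL-33 minus WT IL-33) against the mean log2 normalized intensity of the 6 IL-33 arrays (horizontal axis); coloured points passed the adjusted p of 0.05. The 540 lower genes reach much further from 0 than the 677 higher genes: Ccl1 lies at -6.22 and Espn at 2.86.

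The chemokine genes held the largest single difference in the background-corrected values. Of 16 measured, 7 were lower in ST2KO cells and 0 higher, against 5.13% and 6.43% of all genes. At an unadjusted p under 0.05 in limma, 9 were lower and 0 higher. The median difference was -0.93 on the log2 scale, against 0.02 over all genes. Ccl1, which encodes a ligand of the receptor CCR8, stood at a log2 level of 4.55, 5.09 and 6.64 on the ST2KO arrays, against 12.40, 12.31 and 10.23 on the WT arrays. All 3 ST2KO values lay more than 3 log2 units under the lowest WT value, although WT replicate 3 was itself about 2 units under the other WT arrays; the difference was -6.22 ± 1.001 (SE, n = 3 arrays each), or 74.5-fold (adjusted p = 0.001005). Only 2 of the 3 ST2KO arrays detected Ccl1, and without background correction the difference was -4.76, or 27.1-fold, after that of Il1b at -5.49.

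Ccl3, which encodes the attractant MIP-1 alpha, had log2 levels of 7.35, 7.43 and 8.95 on the ST2KO arrays, against 12.94, 12.93 and 12.39 on the WT arrays. ST2KO replicate 3 was the highest of its group for Ccl3 and still far under every WT array (-4.84 ± 0.81, adjusted p = 0.00129). Ccl4, the neighbouring gene of MIP-1 beta, stood at 8.46, 8.73 and 8.76 on the ST2KO arrays, against 12.40, 12.58 and 12.14 on the WT arrays (-3.72 ± 0.66, adjusted p = 0.00202). Its WT values stayed within 1 log2 unit of each other. For Ccl5, a T cell attractant also known as RANTES, the levels were 5.10, 5.13 and 6.08 on the ST2KO arrays, against 9.97, 10.09 and 9.33 on the WT arrays (-4.36 ± 0.42, adjusted p = 2.46e-05). Ccl5 thus separated the genotypes by over 3 log2 units with no overlap.

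The other chemokines past the threshold were Cxcl2, a neutrophil attractant (-3.15 ± 0.35, adjusted p = 6.55e-05), Cxcl16, which is made as a membrane-bound ligand of CXCR6 (-3.68 ± 0.56, adjusted p = 7.14e-04), and Cxcl10, named after its value was seen (-0.70 ± 0.21, adjusted p = 0.0459). A second probe was lower by less for Cxcl2, at -1.34, and for Cxcl16, at -2.13. Cxcl10 lost its call without any 1 of 5 of the 6 arrays, all but WT replicate 3 (adjusted p up to 0.233), without background correction, without the intensity trend, in the 6 IL-33 arrays alone and in the authors' log2 values. Ccl9 was at -1.16 ± 0.36 (adjusted p = 0.0516, blocked fit 0.0135). Ccl2, encoding the monocyte attractant MCP-1, was at log2 levels of 9.40, 9.999 and 9.89 on the ST2KO arrays, against 9.66, 9.56 and 10.09 on the WT arrays, and its genotypes overlapped (-0.01 ± 0.21, adjusted p = 0.991).

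**Figure D2:**
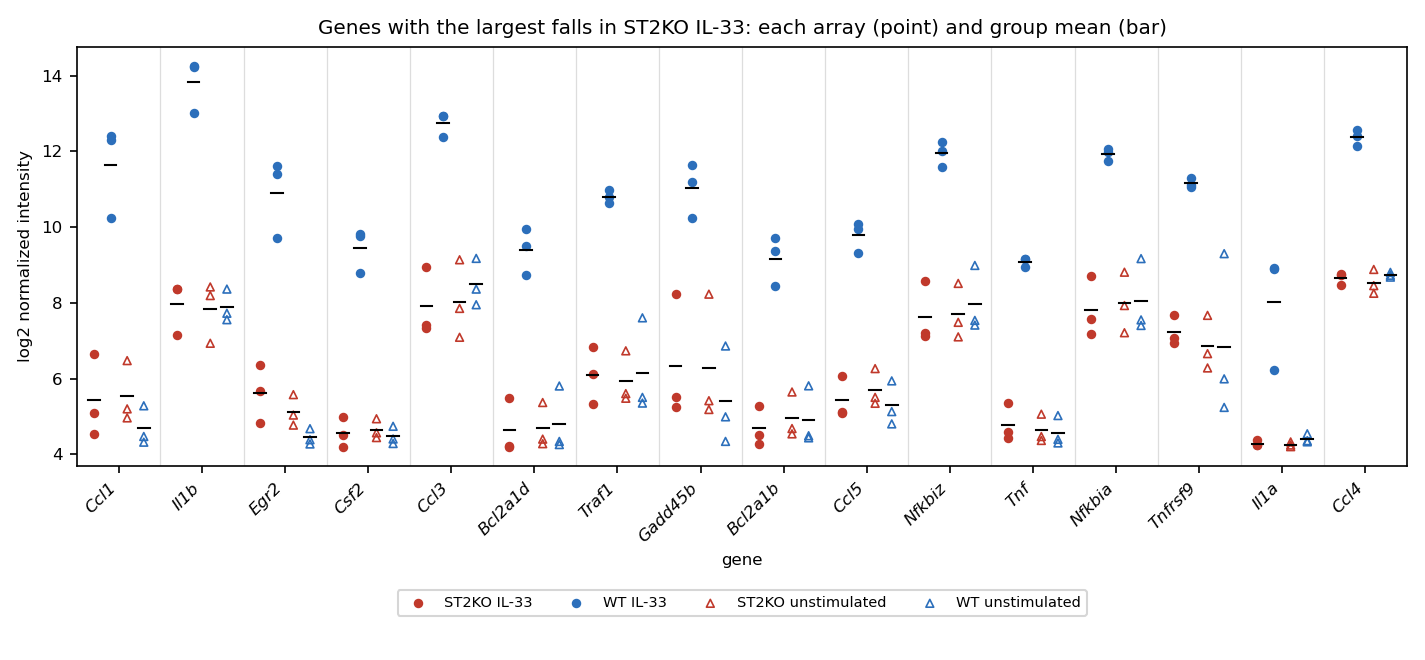
Log2 normalized intensity (vertical axis) of the 16 genes with the largest falls on each IL-33 and unstimulated array, with ST2KO and WT points side by side for each gene and a bar at each group mean. The ST2KO IL-33 points lie under the WT IL-33 points for all 16 genes, from Ccl1 (-6.22) to Ccl4 (-3.72). The rule that named these genes required this separation.

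Cytokine genes followed. Of 22 measured, 7 were lower in ST2KO cells and 2 higher, against 5.13% and 6.43% of all genes, with a median of -0.54. Il1b, the gene of the pyrogenic cytokine IL-1 beta, was at log2 levels of 8.37, 8.36 and 7.16 on the ST2KO arrays, against 14.26, 14.24 and 13.02 on the WT arrays. Replicate 3 was the lowest of both groups (-5.88 ± 0.73, 58.7-fold, adjusted p = 1.44e-04). Its relative Il1a stood at 4.24, 4.39 and 4.24 on the ST2KO arrays, against 8.91, 8.92 and 6.22 on the WT arrays. No ST2KO IL-33 array detected Il1a, which was therefore at least 10.1-fold lower than in WT cells, a bound taken from the dimmest detected probes of each array (adjusted p = 0.00146).

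Among the 16 largest falls, Csf2, Tnf, Bcl2a1d and Bcl2a1b were each detected on 1 of the 3 ST2KO IL-33 arrays, so their differences rest largely on signal not above background. Without background correction they were -3.05, -2.61, -2.99 and -2.74. Csf2 encodes GM-CSF, a growth factor of granulocytes and macrophages. Its log2 levels were 4.21, 4.51 and 5.001 on the ST2KO arrays, against 9.82, 9.77 and 8.79 on the WT arrays, without overlap (-4.89 ± 0.67, adjusted p = 3.24e-04). Tnf, the gene of a cytokine that mast cells can also store, was at 4.58, 4.44 and 5.35 on the ST2KO arrays, against 8.95, 9.17 and 9.15 on the WT arrays, with the WT values close together (-4.30 ± 0.46, adjusted p = 4.91e-05). Il13, a type 2 cytokine gene that drives mucus production and airway reactivity, had 5.20, 5.03 and 6.58 on the ST2KO arrays, against 8.78, 9.16 and 7.89 on the WT arrays. Here the gap narrowed to about 1 unit on the arrays numbered 3 (-3.01 ± 0.49, adjusted p = 0.00105). Il6, which encodes an acute phase cytokine, was at 8.25, 7.92 and 6.88 on the ST2KO arrays, against 10.38, 10.31 and 9.997 on the WT arrays (-2.54 ± 0.49, adjusted p = 0.00338).

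Il4, the other type 2 cytokine of mast cells, did not follow Il13. Its log2 levels were 10.12, 10.14 and 11.75 on the ST2KO arrays, against 10.94, 10.87 and 11.66 on the WT arrays, and ST2KO replicate 3 was the highest of the 6 (-0.48 ± 0.61, adjusted p = 0.680, blocked fit 0.0363). Tgfb1, the gene of TGF beta 1, chosen after seeing its value, was lower by a smaller amount (-0.79 ± 0.15, adjusted p = 0.00293). The 2 cytokine genes that were higher in ST2KO cells were Il15, whose product sustains natural killer and memory T cells, and Il16, a T cell attractant named after its value was seen. Il15 stood at 9.88, 9.59 and 8.81 on the ST2KO arrays, against 7.18, 7.40 and 7.95 on the WT arrays (1.92 ± 0.29, adjusted p = 7.15e-04). For Il16 the levels were 10.11, 10.29 and 11.16 on the ST2KO arrays, against 7.73, 7.72 and 9.96 on the WT arrays (2.05 ± 0.59, adjusted p = 0.0356), and its call was lost in the 6 IL-33 arrays alone, with the mean of its probes and without any 1 array but WT replicate 3 (adjusted p up to 0.171). With the replicate block 8 cytokine genes were lower and 3 higher, against 12.3% and 15.4% of all genes.

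The NF-kB pathway and its targets were the list with the most members past the threshold. Of 25 genes measured, 15 were lower in ST2KO cells and 0 higher, against 5.13% and 6.43% of all genes, and the list's median was -1.52. With 1 array left out 13 to 16 were lower, and with the replicate block 18 were lower and 2 higher. The 2 that were higher in that fit were Map3k14 (0.94, 0.0110 with the block), the kinase NIK of the noncanonical pathway, and Nfkbil1 (0.63, 0.03995), both named after their values were seen.

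Among the subunits, Nfkb2, the gene of the p100 precursor, was at log2 levels of 6.47, 6.23 and 6.86 on the ST2KO arrays, against 9.48, 9.46 and 8.52 on the WT arrays (-2.63 ± 0.28, adjusted p = 4.44e-05). Rel, the gene of c-Rel, stood at 4.86, 4.86 and 4.77 on the ST2KO arrays, against 7.47, 7.60 and 6.62 on the WT arrays (-2.40 ± 0.27, adjusted p = 6.55e-05), so WT cells were nearly 2 log2 units or more above ST2KO cells on every array. Relb, the gene of a partner of p52 and named after its value was seen, was lower as well (-2.82 ± 0.40, adjusted p = 4.15e-04). Rela, the gene of p65, was not: its levels were 10.91, 10.73 and 11.10 on the ST2KO arrays, against 11.38, 10.996 and 11.03 on the WT arrays, with overlapping groups (-0.23 ± 0.13, adjusted p = 0.322).

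Several genes of inhibitors and brakes of NF-kB were lower too. Nfkbia, the gene of IkB alpha, stood at 7.17, 7.59 and 8.71 on the ST2KO arrays, against 12.07, 11.996 and 11.74 on the WT arrays (-4.11 ± 0.51, adjusted p = 1.48e-04), with every WT array near 12. Nfkbiz, whose nuclear product acts as a cofactor for a subset of NF-kB targets such as Il6, was at 7.13, 7.21 and 8.58 on the ST2KO arrays, against 12.26, 12.003 and 11.58 on the WT arrays (-4.31 ± 0.44, adjusted p = 3.2e-05). Tnfaip3, the gene of the ubiquitin-editing enzyme A20, was at 8.46, 8.91 and 8.99 on the ST2KO arrays, against 10.62, 10.58 and 9.92 on the WT arrays (-1.59 ± 0.24, adjusted p = 6.54e-04). It showed one of the smaller gaps of this group, with no overlap.

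Nfkbid, another nuclear IkB protein gene, was at -1.54 ± 0.19 (adjusted p = 1.26e-04), and Traf1, an adaptor of TNF receptors, at -4.71 ± 0.54 (adjusted p = 7.72e-05), with log2 levels of 6.11, 5.32 and 6.84 on the ST2KO arrays, against 10.97, 10.80 and 10.63 on the WT arrays. The remaining lower members, named after their values were seen, were Zc3h12a, whose product Regnase-1 degrades cytokine mRNA (-3.55), the IkB family genes Bcl3 (-2.71), Nfkbie (-1.54) and Nfkbib (-1.02), Tnip1 (-1.52), the kinase gene Ikbke (-1.001) and the adhesion molecule gene Icam1 (-1.83). With 1 array left out, calls were lost for Ikbke without ST2KO replicate 2 or WT replicate 1 (adjusted p up to 0.0734) and Icam1 without ST2KO replicate 1 or 2 or WT replicate 1, 2 or 3 (adjusted p up to 0.139). Sod2, a mitochondrial superoxide dismutase gene and a known NF-kB target, did not pass, at 11.21, 11.15 and 11.42 on the ST2KO arrays, against 11.12, 11.45 and 10.63 on the WT arrays (0.19 ± 0.18, adjusted p = 0.569).

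Promoter sequence was read for the genes of this response, since NF-kB and the AP-1 factors act there. The windows run from 250 bases before to 50 after the annotated start, from RefSeq on the mouse build GRCm38.p6, 5′ to 3′ on the gene's strand. They were searched on both strands for GGGANN followed at once by TTCC, a form of the NF-kB site, and for TGANTCA, a form of the AP-1 site, which reads as the same motif on the other strand. Capitals mark the matches, which are descriptions of letters and not evidence of binding. The 5 shown are the large falls Ccl1, Nfkbia, Bcl2a1d and Il1a, whose windows hold a match, and Nfkb2, whose window at one of its annotated starts holds both motifs.

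Ccl1 (chr11:82179763-82180062, minus strand): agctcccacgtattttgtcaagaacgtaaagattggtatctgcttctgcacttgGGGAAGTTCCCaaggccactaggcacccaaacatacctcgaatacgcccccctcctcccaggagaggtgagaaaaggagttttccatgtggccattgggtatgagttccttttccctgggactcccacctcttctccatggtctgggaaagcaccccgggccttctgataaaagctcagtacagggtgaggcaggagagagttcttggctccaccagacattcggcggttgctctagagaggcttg
Nfkbia (chr12:55492598-55492897, minus strand): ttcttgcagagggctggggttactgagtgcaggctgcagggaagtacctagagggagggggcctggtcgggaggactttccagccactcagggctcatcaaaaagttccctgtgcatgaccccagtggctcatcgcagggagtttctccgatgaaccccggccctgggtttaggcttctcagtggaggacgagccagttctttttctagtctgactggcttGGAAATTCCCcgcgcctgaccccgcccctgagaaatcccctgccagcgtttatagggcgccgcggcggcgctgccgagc
Nfkb2 (chr19:46305445-46305744, plus strand): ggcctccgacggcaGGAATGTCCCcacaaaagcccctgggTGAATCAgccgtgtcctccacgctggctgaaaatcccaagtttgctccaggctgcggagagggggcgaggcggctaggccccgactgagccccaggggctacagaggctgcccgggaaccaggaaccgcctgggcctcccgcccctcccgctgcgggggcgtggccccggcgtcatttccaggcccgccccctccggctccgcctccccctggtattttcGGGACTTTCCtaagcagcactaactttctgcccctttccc
Bcl2a1d (chr9:88731801-88732100, minus strand): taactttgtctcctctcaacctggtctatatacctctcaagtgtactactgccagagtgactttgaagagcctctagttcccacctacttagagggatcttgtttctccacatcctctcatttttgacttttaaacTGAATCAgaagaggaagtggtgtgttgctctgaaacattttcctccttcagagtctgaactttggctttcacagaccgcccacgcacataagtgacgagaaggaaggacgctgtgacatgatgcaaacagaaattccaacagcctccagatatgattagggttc
Il1a (chr2:129309923-129310222, minus strand): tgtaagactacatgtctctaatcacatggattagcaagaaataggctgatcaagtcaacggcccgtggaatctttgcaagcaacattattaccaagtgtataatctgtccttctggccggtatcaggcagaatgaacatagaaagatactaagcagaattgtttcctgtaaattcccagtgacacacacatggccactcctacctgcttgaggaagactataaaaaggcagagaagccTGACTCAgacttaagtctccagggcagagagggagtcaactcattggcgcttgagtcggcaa

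The matches of Ccl1 on the 2 strands overlap and begin 196 and 195 bases before the start. The match of Nfkbia begins 29 bases before the start. Nfkb2 has NF-kB type matches 236 bases before and 10 bases from the start and an AP-1 type match 210 bases before it, while the AP-1 type matches of Bcl2a1d and Il1a begin 114 and 12 bases before the start. Of the 16 genes with the largest falls, 13 had a promoter in the table, of which 2 held the NF-kB letters and 4 the AP-1 letters. Of the 12 with the largest rises, 10 had one, and 0 held either motif.

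Over all 32851 windows of the table, 1.47% held the NF-kB letters and 7.81% the AP-1 letters, and the shares by gene among the 8581 tested genes with a promoter were 1.65% and 6.65%. Among the lower genes the shares were 4.27% and 8.76% of 445, and among those at least 4-fold lower 9.09% and 18.2% of 66, that is 6 and 12 genes. Among the higher genes they were 1.41% and 7.07% of 566. A gene with several annotated starts counts as holding a motif if any window does. These shares carry no test.

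Transcription factor genes of the immediate-early class, which cells switch on within minutes of a signal, differed in part. Of 23 such genes and genes induced by NFAT, 5 were lower in ST2KO cells and 0 higher, against 5.13% and 6.43% of all genes. At an unadjusted p under 0.05 in limma, 8 were lower and 2 higher. The replicate block also gave 8 and 2, against 12.3% and 15.4% of all genes, and the median was -0.23. Egr2, a zinc finger factor gene, was at log2 levels of 5.67, 6.36 and 4.83 on the ST2KO arrays, against 11.61, 11.42 and 9.71 on the WT arrays. Replicate 3 was lowest in both groups, and the gap was about 5 log2 units or more on each number (-5.29 ± 0.54, adjusted p = 3.14e-05). Its relative Egr1 stood at 6.66, 6.94 and 6.87 on the ST2KO arrays, against 10.04, 10.41 and 8.74 on the WT arrays (-2.91 ± 0.65, adjusted p = 0.00891), a call lost without WT replicate 2 (adjusted p = 0.0537).

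Junb, a subunit of AP-1, was lower by less (-1.68 ± 0.27, adjusted p = 0.00111), as was Batf, whose product pairs with JUN proteins (-1.82 ± 0.35, adjusted p = 0.00325), and the stress response gene Ier3 (-0.85 ± 0.18, adjusted p = 0.00593). Bhlhe40 and Klf6 did not pass and lay in the other direction, at 0.34 and 0.69 (adjusted p = 0.0806 and 0.166; blocked fit 0.0158 and 0.0176). Fos and Jun, named after their values were seen, were near 0, at 0.08 ± 0.25 and -0.03 ± 0.42.

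Negative feedback regulators split in direction. Of 26 measured, 4 were lower and 7 higher in ST2KO cells, against 5.13% and 6.43% of all genes, with a median of 0.11. Gadd45b, a stress-response gene that acts on MAP kinase signalling, stood at 5.26, 5.52 and 8.25 on the ST2KO arrays, against 11.65, 11.19 and 10.25 on the WT arrays. ST2KO replicate 3 lay almost 3 log2 units above the other ST2KO arrays and 2 under the lowest WT array (-4.69 ± 0.87, adjusted p = 0.00285). Its relatives went the other way: Gadd45g was at 10.33, 10.08 and 9.90 on the ST2KO arrays, against 8.96, 8.83 and 8.90 on the WT arrays (1.21 ± 0.23, adjusted p = 0.00292), and Gadd45a, named after its value was seen, at 1.25 ± 0.34.

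The other lower members, named after their values were seen, were the MAP kinase phosphatase genes Dusp2 (-0.75) and Dusp5 (-1.49) and Cish, a suppressor of cytokine signalling (-0.89). Higher were Zfp36l1, which encodes an mRNA decay factor (0.89 ± 0.16, adjusted p = 0.00233), the G protein regulators Rgs2 (0.86 ± 0.18, adjusted p = 0.00562), Rgs10 (0.76 ± 0.17, adjusted p = 0.01003) and Rgs1 (0.59), and the phosphatase gene Ptpn22 (1.68), the last 2 named after their values were seen. The counts of this list rested on single arrays: 1 lower and 3 higher without WT replicate 1, 2 and 3 without WT replicate 2, 2 and 5 without ST2KO replicate 2, and 2 and 1 in the 6 IL-33 arrays alone. With 1 array left out, calls were lost for Dusp2 without WT replicate 1 (adjusted p up to 0.0737) and Dusp5 without ST2KO replicate 1 or 2 or WT replicate 1 or 2 (adjusted p up to 0.169). They were also lost for Cish without ST2KO replicate 2 or 3 or WT replicate 1 or 2 (adjusted p up to 0.0943) and Rgs10 without WT replicate 1 or 2 (adjusted p up to 0.0528). The same held for Gadd45a without ST2KO replicate 3 or WT replicate 1 or 2 (adjusted p up to 0.125) and Ptpn22 without ST2KO replicate 2 or WT replicate 1 or 2 (adjusted p up to 0.0933), and for Rgs1 without any 1 of the 6 (adjusted p up to 0.110).

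Among surface molecules, 24 genes of the TNF superfamily and of co-stimulation were measured, of which 5 were lower in ST2KO cells and 2 higher (8 and 3 with the replicate block), with a median of -0.17. Of all genes, 5.13% were lower and 6.43% higher (12.3% and 15.4% with the block). Tnfrsf9, the gene of the co-stimulatory receptor 4-1BB, stood at 6.94, 7.07 and 7.68 on the ST2KO arrays, against 11.29, 11.07 and 11.12 on the WT arrays (-3.93 ± 0.71, adjusted p = 0.00218). Tnfrsf1b, the gene of TNF receptor 2, was at 5.24, 5.27 and 6.02 on the ST2KO arrays, against 8.45, 8.42 and 7.74 on the WT arrays (-2.70 ± 0.41, adjusted p = 6.44e-04). Tnfrsf9 and Tnfrsf1b separated the genotypes on every array on these probes. Other probes of Tnfrsf1b were lower by less, at -0.69 and -0.81.

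The activation marker gene Cd69 was lower (-2.92 ± 0.62, adjusted p = 0.00639), as were Icam1, given above, and the checkpoint ligand gene Pdcd1lg2 (-2.48), which was named after its value was known. Higher in ST2KO cells were Tnfrsf13b, which encodes the receptor TACI (1.46 ± 0.16, adjusted p = 6.55e-05), and Il4ra, the gene of the IL-4 receptor (1.03 ± 0.20, adjusted p = 0.00345). Tnfsf14, which encodes the ligand LIGHT, was at -1.43 ± 0.84 (adjusted p = 0.316, but 3.85e-04 in the blocked fit) and Cd274, the gene of the checkpoint ligand PD-L1, at -0.11 ± 0.31 (adjusted p = 0.867). Without ST2KO replicate 1, WT replicate 1 or WT replicate 2, 3 members of the list were lower. The call of Pdcd1lg2 was lost without ST2KO replicate 1 or 3 or WT replicate 1 or 2 (adjusted p up to 0.165).

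Of 19 regulators of apoptosis, 3 were lower and 2 higher, against 5.13% and 6.43% of all genes. The blocked fit gave 7 and 3, against 12.3% and 15.4% of all genes, and the median was -0.16. Bcl2a1d and Bcl2a1b encode near-identical forms of the survival protein A1, so probe signal cannot be assigned with certainty to either. Bcl2a1d was at 4.21, 4.22 and 5.48 on the ST2KO arrays, against 9.95, 9.49 and 8.75 on the WT arrays (-4.76 ± 0.46, adjusted p = 2.46e-05), and a second probe gave -1.05. Bcl2a1b was at 4.28, 4.52 and 5.29 on the ST2KO arrays, against 9.70, 9.37 and 8.45 on the WT arrays (-4.48 ± 0.45, adjusted p = 2.84e-05). Both were among the 16 largest falls.

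Bcl2l1, the gene of BCL-XL, was lower (-1.59 ± 0.39, adjusted p = 0.0159), while the initiator caspase gene Casp9 (1.20 ± 0.29, adjusted p = 0.0155) and the pro-death gene Bad (0.46 ± 0.12, adjusted p = 0.0258) were higher. These 3 calls were lost in the 6 IL-33 arrays alone, those of Bcl2l1 and Bad also with median scaling and that of Casp9 with the mean of its probes. With 1 array left out, calls were lost for Bcl2l1 without ST2KO replicate 3 or WT replicate 1 or 2 (adjusted p up to 0.0878), Casp9 without WT replicate 1 or 2 (adjusted p up to 0.0973) and Bad without ST2KO replicate 1 or 3 or WT replicate 1 or 2 (adjusted p up to 0.133). Mcl1, another survival gene, did not pass (0.26 ± 0.11, adjusted p = 0.128).

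The receptor complex and its adaptors had a share of calls near that of all genes. Of 18 measured in the IL-33 receptor and MyD88 pathway, 1 was lower and 1 higher, against 5.13% and 6.43% of all genes (3 and 2 in the blocked fit) and the median was -0.03. Il1rap stood at 4.63, 4.92 and 5.20 on the ST2KO arrays, against 5.83, 5.46 and 4.66 on the WT arrays, with overlapping groups (-0.40 ± 0.27, adjusted p = 0.393). Myd88 was at 11.87, 11.83 and 11.37 on the ST2KO arrays, against 11.21, 11.23 and 11.59 on the WT arrays (0.34 ± 0.16, adjusted p = 0.195). The member that was higher was Sigirr, an inhibitory receptor of the IL-1 family, whose groups overlapped (1.35 ± 0.40, adjusted p = 0.0385), and the lower one was Mapkapk2, a kinase activated by p38 (-0.57 ± 0.17, adjusted p = 0.0471). Calls were lost for Sigirr without ST2KO replicate 2 or 3 or WT replicate 1 or 2 (adjusted p up to 0.194) and Mapkapk2 without ST2KO replicate 1 or 3 or WT replicate 1 or 2 (adjusted p up to 0.194), both also without a detection filter and in the 6 IL-33 arrays alone.

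Components of signalling from the IgE receptor included 1 lower and 3 higher members of 24, against 5.13% and 6.43% of all genes. The blocked fit gave 2 and 5, against 12.3% and 15.4% of all genes, and the list's median was 0.19. The kinase gene Btk stood at 12.71, 12.53 and 12.51 on the ST2KO arrays, against 11.52, 11.63 and 11.86 on the WT arrays and was higher in ST2KO cells (0.91 ± 0.14, adjusted p = 7.2e-04). Also higher were Inpp5d, the gene of the lipid phosphatase SHIP1 (0.84 ± 0.20, adjusted p = 0.0139), and the adaptor gene Dok2 (1.72 ± 0.50, adjusted p = 0.0345), and lower was Pik3cb, a PI3 kinase subunit gene (-2.15 ± 0.51, adjusted p = 0.0132). With 1 array left out, calls were lost for Inpp5d without ST2KO replicate 2 or WT replicate 1 or 2 (adjusted p up to 0.0833), Dok2 without ST2KO replicate 1, 2 or 3 or WT replicate 1 or 2 (adjusted p up to 0.121) and Pik3cb without ST2KO replicate 3 or WT replicate 1 or 2 (adjusted p up to 0.0817), and the 6 IL-33 arrays alone called neither Inpp5d nor Pik3cb. Of 24 cytokine receptors, 1 was lower, Il27ra (-0.99 ± 0.24, adjusted p = 0.0147), and 1 higher, Il4ra, given above (3 and 7 with the block), against the same shares of all genes. The median of that list was 0.18, and the call of Il27ra was lost without ST2KO replicate 3 or WT replicate 1 or 2 (adjusted p up to 0.09004).

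Of 27 mast cell identity genes measured, 4 were lower and 3 higher in ST2KO cells, against 5.13% and 6.43% of all genes, and the median was -0.13. Kit, the gene of the stem cell factor receptor, stood at 13.72, 14.19 and 13.84 on the ST2KO arrays, against 13.81, 13.96 and 13.83 on the WT arrays (0.05 ± 0.14, adjusted p = 0.872). Fcer1a, the IgE-binding receptor chain, was at -0.15 ± 0.10 (adjusted p = 0.403), and the protease genes Cma1 and Cpa3 at -0.07 ± 0.09 and -0.11 ± 0.10 (adjusted p = 0.643 and 0.534). The 95% interval had a half-width of 0.30 for Kit, 0.22 for Fcer1a, 0.18 for Cma1 and 0.21 for Cpa3, against a median of 0.46 over all genes. Gata2, a transcription factor gene of the lineage, was at -0.16 ± 0.13 (adjusted p = 0.506).

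Among the lower ones were genes of mediator synthesis. Hdc, whose product makes histamine, was at 12.21, 12.60 and 10.88 on the ST2KO arrays, against 13.86, 13.61 and 13.64 on the WT arrays. ST2KO replicate 3 was the lowest, and the groups did not overlap (-1.80 ± 0.37, adjusted p = 0.00495, a call lost in the 6 IL-33 arrays alone). Tph1, whose product starts serotonin synthesis, was at 13.36, 13.52 and 13.14 on the ST2KO arrays, against 14.46, 14.62 and 14.58 on the WT arrays (-1.22 ± 0.17, adjusted p = 4.15e-04). Cd9, a tetraspanin gene (-0.96 ± 0.23, adjusted p = 0.0143), and the tryptase gene Tpsab1, singled out by its value (-2.16), were also lower. Calls were lost for Cd9 without ST2KO replicate 1 or 2 or WT replicate 2 (adjusted p up to 0.0626), and for Tpsab1 without any 1 of the 6 arrays (adjusted p up to 0.0693).

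The 3 higher ones encode transcription factors of blood progenitors. Lyl1 stood at 10.35, 10.32 and 10.16 on the ST2KO arrays, against 8.93, 8.95 and 9.31 on the WT arrays (1.22 ± 0.13, adjusted p = 5.62e-05). Its partner Lmo2 was at 9.29, 9.07 and 8.82 on the ST2KO arrays, against 7.03, 7.22 and 8.16 on the WT arrays (1.59 ± 0.30, adjusted p = 0.00328), with the smallest gap on the arrays numbered 3. Tal1, of the same complex and named after its value was seen, was at 0.47 ± 0.12 and lost its call without ST2KO replicate 2 or WT replicate 1 (adjusted p up to 0.103). In the 6 IL-33 arrays alone Lmo2 and Tal1 were not called.

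Of 14 lipid mediator genes, 1 was lower and 2 higher (1 and 3 in the blocked fit) and the median was 0.24. Of all genes, 5.13% were lower and 6.43% higher (12.3% and 15.4% in the blocked fit). Lpcat2, which encodes an acyltransferase that makes platelet-activating factor, stood at 8.20, 8.23 and 9.44 on the ST2KO arrays, against 5.30, 4.74 and 7.43 on the WT arrays. WT replicate 3 lay 2 log2 units or more above the other WT arrays, and no ST2KO array was as low (2.80 ± 0.53, adjusted p = 0.00299). Other probes of Lpcat2 were higher by less, at 1.22 and 1.03. Ptger3, a prostaglandin E2 receptor gene, was higher (1.70 ± 0.46, adjusted p = 0.0251; lost without ST2KO replicate 1 or 2 or WT replicate 1 or 2, adjusted p up to 0.124), and Ptges3, a co-chaperone with prostaglandin synthase activity, was lower (-0.65 ± 0.14, adjusted p = 0.00655). The leukotriene genes Alox5 and Alox5ap were at 0.47 ± 0.36 and 0.08 ± 0.13 (adjusted p = 0.457 and 0.737).

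Lists of metabolism and growth depended on the replicate block, with which 12.3% of all genes were lower and 15.4% higher, against 5.13% and 6.43% without it. In the unfolded protein and amino acid response, with 24 genes measured, 3 were lower and 1 higher (8 and 3 in the blocked fit) and the median was -0.18. Slc7a11, the cystine transporter gene, stood at 5.48, 5.52 and 5.73 on the ST2KO arrays, against 7.59, 7.60 and 7.91 on the WT arrays (-2.13 ± 0.21, adjusted p = 2.61e-05), with both groups tight. Dnajb9, a chaperone gene of the endoplasmic reticulum (-1.15 ± 0.25, adjusted p = 0.00790), and Atf4, the transcription factor gene of the amino acid response (-0.62 ± 0.19, adjusted p = 0.0397), were also lower, and Ddit4, an inhibitor of mTORC1, was higher (1.37 ± 0.29, adjusted p = 0.00684). The call of Atf4 was lost without ST2KO replicate 1 or 2 or WT replicate 1 or 2 (adjusted p up to 0.180) and also in the 6 IL-33 arrays alone. Without ST2KO replicate 3, 5 members were lower.

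Of 17 cholesterol synthesis genes, 0 passed in limma (0 also at an unadjusted p under 0.05), with a median of -0.53, whereas 8 were lower in the blocked fit. Fdps, an enzyme of the mevalonate route, stood at 9.99, 9.64 and 7.38 on the ST2KO arrays, against 10.96, 10.82 and 8.89 on the WT arrays, with both genotypes about 2 log2 units lower on the arrays numbered 3 (-1.22 ± 0.94, adjusted p = 0.461, and 2.51e-04 with the block). Of 27 cell cycle genes, 0 passed (1 lower and 1 higher at an unadjusted p under 0.05, and 3 lower and 1 higher with the block), with a median of -0.12. Of 19 genes of ribosome biogenesis, 1 was higher, the nucleolar chaperone gene Npm1 (0.46 ± 0.12, adjusted p = 0.0257), against 9 lower and 1 higher with the block and a median of -0.53. The call of Npm1 was lost without ST2KO replicate 2 or 3 or WT replicate 1 or 3 (adjusted p up to 0.0921), and without WT replicate 3, 4 members of the list were lower.

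Of 20 interferon response genes, 2 were lower and 1 higher, against 5.13% and 6.43% of all genes. Rsad2, which encodes viperin (-2.53 ± 0.61, adjusted p = 0.0147), and Gbp3, a guanylate-binding protein gene (-3.01 ± 0.93, adjusted p = 0.0474), were lower, and Psmb9, an immunoproteasome subunit gene, was higher (1.38 ± 0.30, adjusted p = 0.00804). With the block 6 were lower and 3 higher, and the median was -0.38. Both falls were lost with 1 array left out: Rsad2 without ST2KO replicate 2 or WT replicate 1 or 2 (adjusted p up to 0.0824) and Gbp3 without ST2KO replicate 1 or 2 or WT replicate 1, 2 or 3 (adjusted p up to 0.146). Without WT replicate 3, 5 members were lower. Of 11 housekeeping genes 0 passed (0 also at an unadjusted p under 0.05), with a median of -0.0012 and the actin gene Actb at -0.30 ± 0.15 (adjusted p = 0.223).

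**Figure D3:**
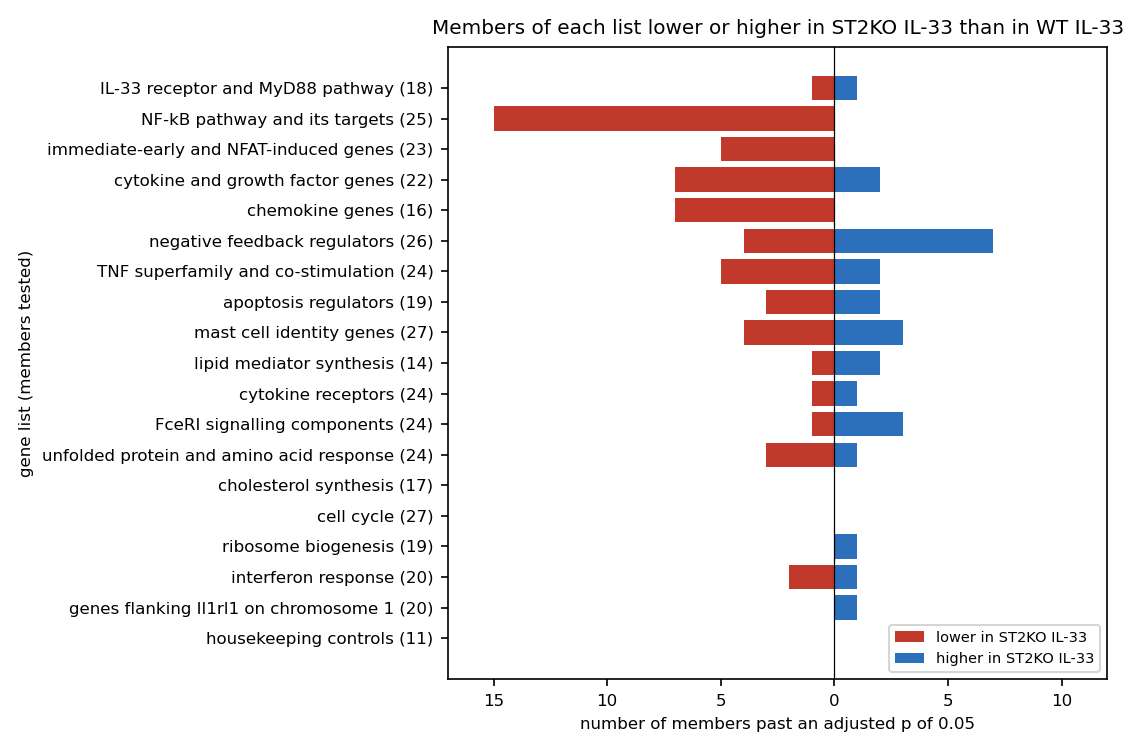
Number of members of each gene list that were lower (left of 0) or higher (right of 0) in ST2KO IL-33 than in WT IL-33 arrays at an adjusted p under 0.05, with the number of members tested beside each list's name. NF-kB genes show 15 lower of 25 and chemokine genes 7 lower of 16, while feedback regulators show 4 lower and 7 higher of 26. Of all genes, 5.13% were lower and 6.43% higher.

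Markers of other cells were scored because the cultures could hold them, and in bulk RNA fewer cells of a type cannot be told apart from less RNA per cell. Only markers that passed the detection filter were summed. Of 21 macrophage and dendritic cell markers with a probe, 12 were summed. Their intensity was 2868.6 to 3427.3 on the ST2KO IL-33 arrays and 2669.8 to 12578 on the WT IL-33 arrays. For 10 of 11 erythroid and megakaryocyte markers the sum was 2184.7 to 9046.5 in ST2KO and 7967.5 to 28335 in WT. That of 9 of 10 basophil markers was 38598 to 42220 in ST2KO and 48193 to 53215 in WT. Basophil markers include Fcer1a, which mast cells also express. The sums of 5 of 14 neutrophil markers were 360.17 to 6865.2 in ST2KO and 326.63 to 8408.8 in WT. Those of 2 of 7 eosinophil markers were 66.887 to 465.48 in ST2KO and 50.157 to 231.85 in WT. For 8 of 17 lymphocyte markers they were 3171.3 to 4190.4 in ST2KO and 2197.6 to 3232.5 in WT. For 4 of 12 fibroblast markers they were 757.63 to 2092.6 in ST2KO and 419.76 to 830.71 in WT.

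Many defining markers were undetected on all 6 arrays, among them Itgam, Fcgr1 and Mertk of macrophages, S100a8, S100a9, Elane and Mpo of neutrophils, Siglecf and Epx of eosinophils, Cd3e and Ms4a1 of lymphocytes and Col1a1 of fibroblasts. The markers past the threshold, all lower in ST2KO cells, were Adgre1, the macrophage gene of F4/80 (-0.87 ± 0.26, adjusted p = 0.0405), Cd69, given above, and Basp1 on the basophil list (-1.53 ± 0.39, adjusted p = 0.0189), Lcn2 on the neutrophil list (-1.51 ± 0.47, adjusted p = 0.0488) and Tfrc on the erythroid list (-1.56 ± 0.39, adjusted p = 0.0181). Other probes of Adgre1 were at -0.93 and -0.07 and not called. With the mean of a gene's probes, and in the 6 IL-33 arrays alone, 0 macrophage and dendritic cell markers were lower. The 4 called here besides Cd69 were each lost with 1 array left out: Adgre1 without ST2KO replicate 1, 2 or 3 or WT replicate 2 or 3 (adjusted p up to 0.187), Basp1 without ST2KO replicate 1 or 2 or WT replicate 1 or 2 (adjusted p up to 0.0869), Lcn2 without ST2KO replicate 1 or 2 or WT replicate 1, 2 or 3 (adjusted p up to 0.145) and Tfrc without ST2KO replicate 2 or 3 or WT replicate 1 or 2 (adjusted p up to 0.102). The globin gene Hbb-bs, at 11.41, 11.004 and 7.12 on the ST2KO arrays, against 13.70, 13.74 and 11.72 on the WT arrays, missed the threshold (-3.21 ± 1.28, adjusted p = 0.124, and 7.74e-05 with the block), as did the class II gene H2-Ab1 (-1.20 ± 1.13, and 7.35e-04 with the block). The blocked fit gave as lower 3 macrophage and dendritic cell, 3 basophil, 3 erythroid, 1 neutrophil and 1 lymphocyte markers. It gave as higher 2 basophil, 1 eosinophil, 1 lymphocyte and 1 fibroblast markers. Of all genes, 12.3% were lower and 15.4% higher with the block. Prss34 of the basophil list, named after its value was seen, was also lower with the block. It was at -1.14 under IL-33 and -1.35 unstimulated (adjusted p = 8.41e-04 and 0.0109). The part of other cells in the results above was not tested.

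The genes with the largest rises were of varied function. Espn, whose product bundles actin, stood at 9.59, 9.72 and 9.97 on the ST2KO arrays, against 6.23, 6.27 and 8.20 on the WT arrays (2.86 ± 0.59, adjusted p = 0.00536). Of its 4 probes this and 1 other were called, at 1.61, and the remaining 2 were at 0.11 and 0.22. Fgd2, which encodes an activator of the GTPase CDC42, was at 8.70, 8.44 and 7.64 on the ST2KO arrays, against 5.57, 5.62 and 6.08 on the WT arrays (2.50 ± 0.38, adjusted p = 7.04e-04). Its groups stayed more than 1 log2 unit apart.

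Cited4, a transcriptional coactivator gene, was at 10.62, 10.90 and 11.40 on the ST2KO arrays, against 7.68, 7.98 and 10.02 on the WT arrays (2.41 ± 0.49, adjusted p = 0.00491), and WT replicate 3 came within 1 unit of the lowest ST2KO array. Rap1gap2, an inactivator of the GTPase RAP1, was at 8.18, 8.74 and 8.94 on the ST2KO arrays, against 6.07, 5.98 and 7.26 on the WT arrays (2.18 ± 0.39, adjusted p = 0.00210). Tfdp2, a dimerization partner of the E2F factors, was at 7.33, 7.64 and 7.31 on the ST2KO arrays, against 5.004, 5.27 and 5.79 on the WT arrays (2.08 ± 0.23, adjusted p = 6.55e-05), and 4 of its 5 probes were called.

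Lrrc36 (2.52 ± 0.56, adjusted p = 0.00880), the semaphorin gene Sema4a (2.31 ± 0.62, adjusted p = 0.0246), the axon transport gene Fez1 (2.24 ± 0.59, adjusted p = 0.0230), Zcchc24 (2.16 ± 0.61, adjusted p = 0.0317) and Cyhr1 (2.07 ± 0.58, adjusted p = 0.0312) rested on single arrays. Without 1 array, calls were lost for Lrrc36 without WT replicate 1 or 2 (adjusted p up to 0.0588), Sema4a without ST2KO replicate 1 or 2 or WT replicate 1 or 2 (adjusted p up to 0.106), Fez1 without ST2KO replicate 3 or WT replicate 1 or 2 (adjusted p up to 0.113), Zcchc24 without ST2KO replicate 1 or 3 or WT replicate 1 or 2 (adjusted p up to 0.165) and Cyhr1 without ST2KO replicate 2 or 3 or WT replicate 1 or 2 (adjusted p up to 0.144). The other 4 probes of Cyhr1 were at -0.50 to 0.36 and not called. In the 6 IL-33 arrays alone these 5, Lpcat2 and Cited4 were not called. The 16 largest falls were called in every alternative, with an adjusted p of at most 0.0197 with 1 array left out.

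**Figure D4:**
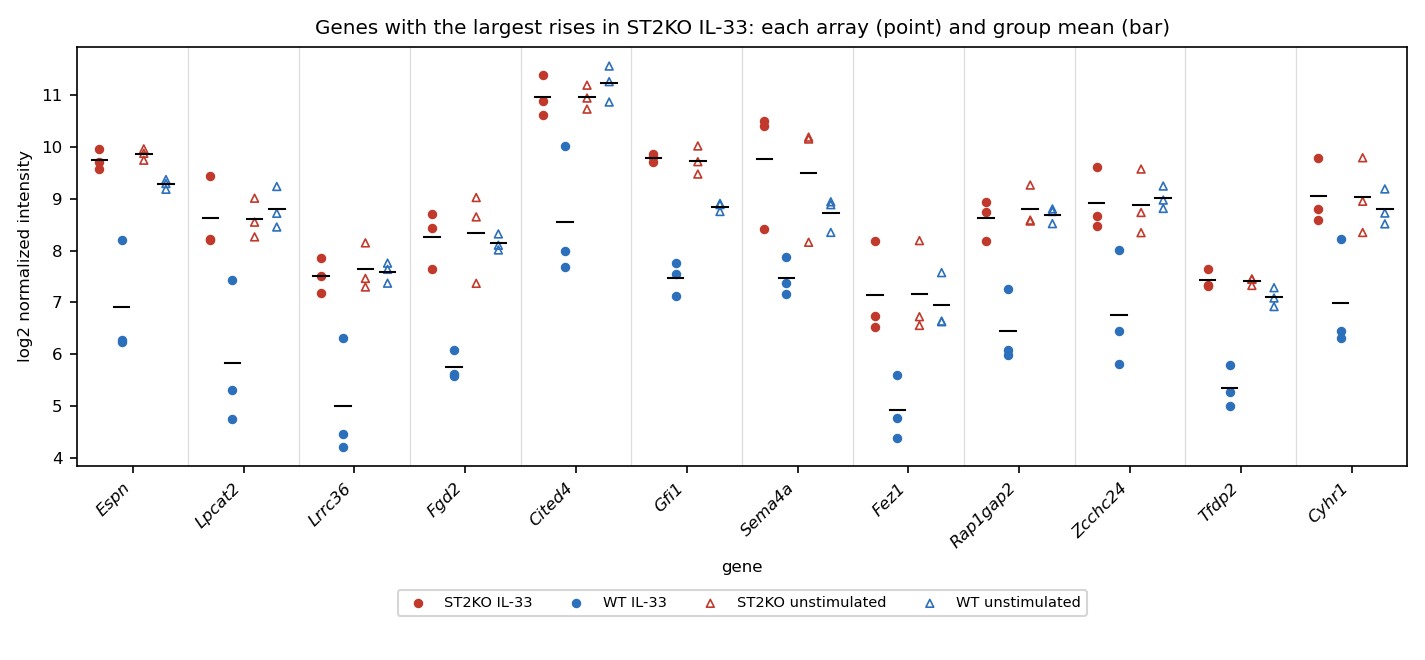
Log2 normalized intensity (vertical axis) of the 12 genes with the largest rises on each IL-33 and unstimulated array, with ST2KO and WT points side by side for each gene and a bar at each group mean. The ST2KO IL-33 points lie above the WT IL-33 points for all 12 genes, from Espn (2.86) to Cyhr1 (2.07). The rule that named these genes required this separation. For several genes the WT array numbered 3 lies closest to the ST2KO IL-33 points.

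Gfi1, a transcriptional repressor gene of blood stem and myeloid cells, had the smallest adjusted p of the 12 largest rises. It stood at 9.87, 9.72 and 9.80 on the ST2KO arrays, against 7.54, 7.76 and 7.13 on the WT arrays, spread by less than 1 log2 unit within a group (2.32 ± 0.17, adjusted p = 3.34e-06). Unstimulated, it was at 9.72, 10.02 and 9.48 in ST2KO cells and 8.76, 8.89 and 8.91 in WT cells (0.89 ± 0.17, adjusted p = 0.199, and 0.0109 with the replicate block). With IgE it was at 9.01, 9.36 and 9.10 in ST2KO cells, the third value placed by rank because that array is incomplete, and 8.40, 8.45 and 8.27 in WT cells (0.79 ± 0.17, adjusted p = 0.401, and 0.0335 with the block). ST2KO cells were thus above WT cells on every array of all 3 conditions, and the difference under IL-33 exceeded the other two by 1.43 ± 0.24 and 1.53 ± 0.24 (adjusted p = 0.00666 and 0.00378).

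Without IL-33 fewer genes separated the genotypes, by a number that turned on the arrays numbered 3. Unstimulated, 1 gene of 10529 passed (0.0095%; 341 at an unadjusted p under 0.05), against 21 with the replicate block and 535 without the arrays numbered 3. With IgE 1 gene passed (0.0095%; 294 at an unadjusted p under 0.05), against 14 with the block and 423 without those arrays. Under IL-33 the same 3 fits gave 1217, 2916 and 3892. Over the 540 genes lower under IL-33, the median difference was -0.98 under IL-33, -0.04 unstimulated and -0.02 with IgE, and over the 677 higher genes it was 0.86, 0.06 and 0.01. These genes were chosen by the IL-33 contrast, so the medians are a description.

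That 1 gene was in both cases Rpe, whose product acts in the pentose phosphate pathway. With IL-33 it stood at 4.996, 4.94 and 5.01 on the ST2KO arrays, against 7.98, 7.33 and 8.27 on the WT arrays (-2.88 ± 0.28, adjusted p = 2.56e-05). Unstimulated, it was at 5.18, 5.04 and 5.65 in ST2KO cells and 7.66, 7.52 and 7.82 in WT cells (-2.37 ± 0.28, adjusted p = 0.00515), and with IgE at 4.42, 5.02 and 4.46 in ST2KO cells, the third by rank, and 6.81, 6.31 and 7.35 in WT cells (-2.19 ± 0.28, adjusted p = 0.0140). The unstimulated call of Rpe was lost without ST2KO unstimulated replicate 1 or 2 (adjusted p up to 0.0654) and in the 6 unstimulated arrays alone (adjusted p = 0.181). The IgE call was lost without ST2KO IgE replicate 1 or WT IgE replicate 1 (adjusted p up to 0.164). It was also lost in the 6 IgE arrays alone (adjusted p = 0.99977) and without background correction (-0.96, adjusted p = 0.127). Its difference under IL-33 was not distinguishable from that without stimulus (-0.50 ± 0.40, adjusted p = 0.638). Rpe lies on chromosome 1, as does Il1rl1. Of 20 genes measured near Il1rl1 itself, 0 were lower and 1 was higher under IL-33, against 5.13% and 6.43% of all genes. With the block 0 were lower and 4 higher, against 12.3% and 15.4% of all genes. The 1 higher gene was the mitochondrial ribosome gene Mrpl30 (0.52 ± 0.12, adjusted p = 0.0144). Its call was lost without ST2KO replicate 2 or WT replicate 1 (adjusted p up to 0.0625). Of the genes called under IL-33 with a known chromosome, 63 of 1216 (5.18%) were on chromosome 1, against 5.38% of all genes tested. With the replicate block it held 4 of 20 called genes unstimulated (20%), 4 of 14 with IgE (28.6%) and 141 of 2914 under IL-33 (4.84%), and no test was made of these shares.

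The change of the genotype difference between conditions was tested directly. The difference under IL-33 departed from that without stimulus for 287 genes (2.73%), 155 in the negative (1.47%) and 132 in the positive direction (1.25%; limma interaction, adjusted p under 0.05). The count was 1242 with the replicate block, 141 in the arrays of these groups alone, 2562 without the arrays numbered 3 and 99 to 577 with 1 array left out. It departed from that with IgE for 327 genes (3.11%), 163 negative (1.55%) and 164 positive (1.56%). That count was 1398, 155, 2625 and 147 to 658 in the same fits. Of the 540 lower genes, 154 had a negative interaction against no stimulus and 155 against IgE, and of the 677 higher genes 125 and 156 had a positive one. The IL-33 contrast that chose these genes is part of each interaction, so these counts are a description. An interaction had a median half-width of 0.65, against 0.46 for a difference between 2 groups, so fewer genes could pass. Under median scaling 78.0% of the interactions against no stimulus were positive, against 46.0% in the quantile-normalized values, and against IgE 66.4% and 50.2%.

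The 6 largest negative interactions against no stimulus were those of Ccl1, Egr2, Il1b, Gadd45b, Csf2 and Ccl5. Ccl1 was at 5.20, 4.97 and 6.48 in unstimulated ST2KO cells and 4.32, 4.48 and 5.29 in unstimulated WT cells, and its genotype difference under IL-33 departed from that by -7.07 ± 1.42 (adjusted p = 0.0158), a call lost without WT IL-33 replicate 1 or 2 (adjusted p up to 0.0558). Unstimulated, Il1b was at 8.19, 8.42 and 6.94 in ST2KO cells and 7.56, 7.73 and 8.37 in WT cells, with an interaction of -5.84 ± 1.03 (adjusted p = 0.00823). Egr2 and Csf2 had interactions of -5.98 ± 0.76 and -5.06 ± 0.94 (adjusted p = 0.00175 and 0.0110). With IgE, Ccl1 was high in both genotypes, at 12.66, 12.95 and 8.27 in ST2KO cells, the third by rank, and 10.86, 11.30 and 9.67 in WT cells.

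Ccl3 and Ccl4 did not pass every interaction. With IgE, Ccl3 was at 12.72, 12.52 and 9.04 in ST2KO cells, the third by rank, and 11.86, 12.39 and 10.80 in WT cells. Unstimulated ST2KO replicate 3 was at 9.14, so the third IgE value was not raised above it. The interaction of Ccl3 was -4.37 ± 1.14 against no stimulus (adjusted p = 0.0546) and -4.59 ± 1.14 against IgE (adjusted p = 0.0417), and that of Ccl4 -3.51 ± 0.93 and -3.48 ± 0.93 (adjusted p = 0.0586 and 0.0569). Without 1 of the 12 arrays in turn, the Ccl3 call against IgE was lost 9 times. Hdc passed against no stimulus (-2.20 ± 0.52, adjusted p = 0.0378) and not against IgE (-1.66 ± 0.52, adjusted p = 0.0995). The Hdc call was lost 8 times of 12. Among the positive interactions, Lpcat2 was at 2.99 ± 0.74 against no stimulus and 2.97 ± 0.74 against IgE (adjusted p = 0.0459 and 0.0429). These calls were lost 11 and 10 times of 12.

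Ogfrl1 lay in opposite directions with and without IL-33. With IL-33 it was at 7.52, 7.62 and 7.40 on the ST2KO arrays, against 6.63, 6.06 and 7.25 on the WT arrays (0.86 ± 0.23, adjusted p = 0.0240). Unstimulated, it was at 7.36, 7.41 and 7.41 in ST2KO cells and 8.53, 8.74 and 8.59 in WT cells (-1.23 ± 0.23, adjusted p = 0.199, and 0.0327 with the replicate block). With IgE it was at 6.54, 6.63 and 6.21 in ST2KO cells, the third by rank, and 7.52, 7.36 and 7.27 in WT cells (-0.92 ± 0.23, adjusted p = 0.651). The interaction passed against both (2.09 ± 0.32 and 1.78 ± 0.32, adjusted p = 0.00482 and 0.00854). The IL-33 call itself was lost in the 6 IL-33 arrays alone and without ST2KO replicate 1 or 2 or WT replicate 1 or 2 (adjusted p up to 0.121).

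**Figure D5:**
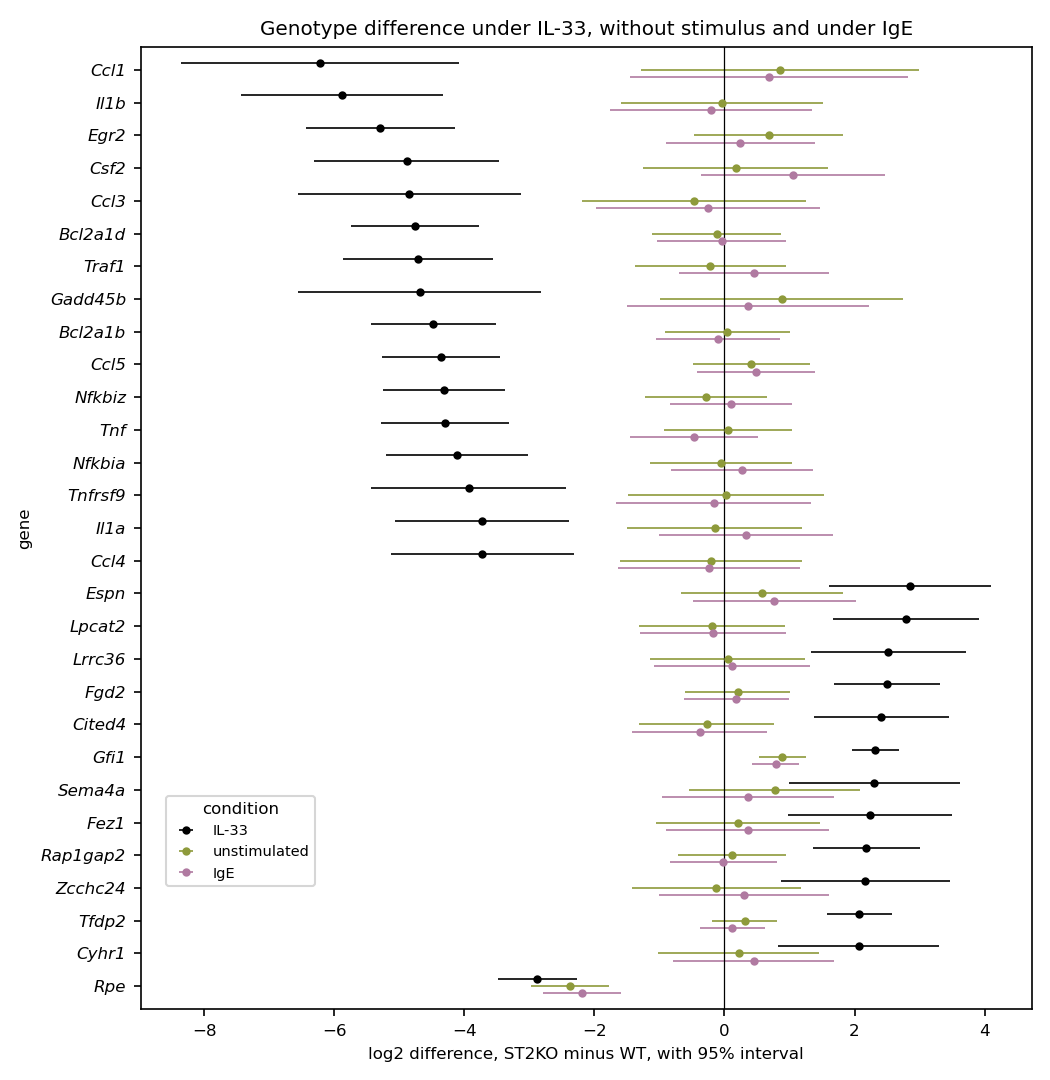
Genotype difference (horizontal axis, log2 ST2KO minus WT, with its 95% interval) of the 16 largest falls, the 12 largest rises and Rpe under IL-33, without stimulus and under IgE (one row per gene). Ccl1, Il1b and Egr2 lie far under 0 under IL-33 alone, Rpe lies under 0 in all 3 conditions, and Gfi1 lies above 0 in all 3.

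Levels in ST2KO cells exposed to IL-33 were close to those of cells without stimulus. Over the 540 lower genes the median log2 level was 7.66 in ST2KO IL-33, against 8.97 in WT IL-33, 7.70 in ST2KO unstimulated and 7.71 in WT unstimulated arrays. For 508 of them (94.1%) the WT unstimulated mean lay nearer to the ST2KO IL-33 mean than to the WT IL-33 mean, and for 243 (45%) the WT IgE mean did. Over the 677 higher genes the median was 8.61 in ST2KO IL-33, against 7.64 in WT IL-33, 8.64 in ST2KO unstimulated and 8.59 in WT unstimulated arrays, and the WT unstimulated mean was nearer to ST2KO IL-33 for 637 (94.1%) and the WT IgE mean for 184 (27.2%). These genes were chosen by the contrast of the IL-33 arrays, so these shares are a description and carry no test.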

How the data were processed

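RNA of cultured mast cells was hybridised to Illumina bead arrays, 3 per group, per the labels. The deposited table holds non-normalized probe intensity with a detection p-value per probe and array, per the file headers. A second table holds the authors' normalized log2 values, whose columns share 1 distribution; background method, software and array design build are not given in the sources used here. With limma 3.58.1 (R 4.3.3) the intensities were background-corrected and quantile-normalized by neqc with an offset of 16. The array of ST2KO IgE replicate 3 has values for 10012 of 45281 probes and was placed by the rank order of the authors' log2 values. A probe was kept if 3 or more arrays detected it at p under 0.05 (19514 probes). Of all probes 34885 had 1 gene symbol, 18 several and 10378 none. The probe with the highest mean stood for a gene, which left 10529 genes, 4096 of them with several probes. Symbols come from the platform annotation, which can be old.

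Each comparison was a contrast of 6 group means fitted by limma on all 18 arrays (eBayes with trend, 12 residual degrees of freedom), with Benjamini-Hochberg adjustment over all genes at 0.05; the fit was tested on simulated data. The number of arrays limits the precision, as does the spread added by the arrays numbered 3. A detection bound sets a gene undetected in a group at the dimmest detected signal of each array. Alternatives were other background, scaling, filter, probe, sample and variance choices, the replicate number as a block, and each array left out. Same-numbered arrays of the 2 genotypes deviated together. Correlations of residuals were 0.492, 0.522 and 0.650 with IL-33, 0.548, 0.605 and 0.727 unstimulated, and 0.506, 0.564 and 0.699 with IgE. Arrays 1 and 2 correlated as highly across numbers. Deviations from a mean of 3 arrays cancel out, so the shift of array 3 also moves those of arrays 1 and 2. The data thus set array 3 apart but do not show that numbers 1 and 2 pair samples, and the labels do not say. The main fit used no pairing, and only the block alternative did.

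Genes and lists were chosen with earlier results of these data known. Named are the 16 largest falls and 12 largest rises past the threshold without overlap (clone and model names left out), per list up to 5 members that passed and 2 of the highest mean signal that did not, 23 genes of the pathway and the cell type besides Il1rl1, the 6 largest interactions of each sign and genes called in all 3 conditions; others are marked as named after their values were seen. Figures were drawn with Python 3.11.15 and matplotlib 3.10.9.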

Additional observations from a re-analysis of the deposited data

Results flagged for a closer look

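The genotype difference under IL-33 differed from that without stimulus for 287 genes by the limma interaction test, at an adjusted p under 0.05. The 6 largest negative interactions were Ccl1 (-7.07 ± 1.42, adjusted p = 0.0158), Egr2 (-5.98 ± 0.76, adjusted p = 0.00175), Il1b (-5.84 ± 1.03, adjusted p = 0.00823), Gadd45b (-5.57 ± 1.24, adjusted p = 0.0274), Csf2 (-5.06 ± 0.94, adjusted p = 0.0110) and Ccl5 (-4.78 ± 0.60, adjusted p = 0.00175). The 6 largest positive ones were Lpcat2 (2.99 ± 0.74, adjusted p = 0.0459), Fgd2 (2.30 ± 0.54, adjusted p = 0.0370), Ogfrl1 (2.09 ± 0.32, adjusted p = 0.00482), the RNA-binding protein gene Carhsp1 (1.94 ± 0.48, adjusted p = 0.0454), the chromatin protein gene Pwwp3a (1.87 ± 0.41, adjusted p = 0.0268) and Rcbtb2 (1.83 ± 0.34, adjusted p = 0.0113). Under IL-33 Pwwp3a stood at 10.55, 10.62 and 10.79 on the ST2KO arrays, against 8.15, 8.24 and 9.69 on the WT arrays, and Carhsp1 at 7.16, 7.31 and 8.38 on the ST2KO arrays, against 5.41, 6.02 and 6.17 on the WT arrays.

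Against IgE the interaction passed for 327 genes. The largest negative ones were Ccl1 (-6.90 ± 1.42, adjusted p = 0.0157), Csf2 (-5.94 ± 0.94, adjusted p = 0.00419), Il1b (-5.67 ± 1.03, adjusted p = 0.00841), Egr2 (-5.54 ± 0.76, adjusted p = 0.00279), Traf1 (-5.16 ± 0.77, adjusted p = 0.003002) and Gadd45b (-5.05 ± 1.24, adjusted p = 0.0394). The largest positive ones were Lpcat2 (2.97 ± 0.74, adjusted p = 0.0429), Cited4 (2.80 ± 0.69, adjusted p = 0.0408), Fgd2 (2.32 ± 0.54, adjusted p = 0.0305), Rap1gap2 (2.20 ± 0.55, adjusted p = 0.0425), Kazald1, which encodes a secreted protein (2.004 ± 0.45, adjusted p = 0.0252), and Tfdp2 (1.95 ± 0.33, adjusted p = 0.00584). The IgE side includes the array placed by rank. Both interactions share the IL-33 arrays, so their lists are not independent of each other. With each single array left out in turn, the call was kept against no stimulus by Egr2, Il1b, Csf2, Ccl5, Ogfrl1 and Rcbtb2, and against IgE by Csf2, Il1b, Egr2, Traf1 and Tfdp2; each of the other genes named here lost it without at least 2 of the 12 arrays in turn.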

How the results depend on the processing

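Genes past the threshold between ST2KO IL-33 and WT IL-33 numbered 1217, against 329 when only the arrays of the groups compared were fitted, 2916 with the replicate block, 3892 without the arrays numbered 3 and 1725 with the block in the 6 IL-33 arrays alone, a fit chosen after seeing the data. The lower genes numbered 301 with median scaling, 196 in the groups alone, 1294 with the block, 1686 without the arrays numbered 3 and 754 in the added fit, and the higher genes 133, 1622, 2206 and 971 in the last 4 of these. With 1 array left out the total was 573 to 1721, the lower genes 283 to 742 and the higher 290 to 979. The block fit shared all 1217 calls in direction, and the fit without arrays numbered 3 shared 1199. Unstimulated, the count of 1 became 2 without background correction, 0 in the groups alone (285 at an unadjusted p under 0.05 in limma), 21 with the block, 535 without the arrays numbered 3 and 0 to 6 with 1 array left out. With IgE it became 2 with the mean of a gene's probes, 0 in the groups alone (300 unadjusted), 19 without the incomplete array, 14 with the block, 423 without the arrays numbered 3 and 0 to 19 with 1 array left out. The interaction count against no stimulus was 145 without a detection filter, 141 in the groups alone, 1242 with the block, 2562 without the arrays numbered 3 and 99 to 577 with 1 array left out, and against IgE 181, 155, 1398, 2625 and 147 to 658. The causes were not tested. Of the single-gene values under the alternatives, 4252 kept their side of the threshold, 554 lost and 78 gained it. Of values called in either fit 0 changed sign, while changes of sign in values not called were not counted. Dim genes limit the size of fold changes: background subtraction widens a difference near background, as for Ccl1, at -6.22 with it and -4.76 without.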

Other observations

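Of the 2877 kept probes without a single gene symbol, 105 (3.65%) were lower and 91 (3.16%) higher in ST2KO IL-33 than in WT IL-33 arrays, and they were not counted among the genes above. With the replicate block, 6 genes, Rpe among them, were lower and 5 higher in ST2KO cells in both conditions without IL-33. Of the lower genes, the clone-named gene 3110040M04Rik of chromosome 1 had log2 differences of -1.58 unstimulated, -1.99 with IgE and -2.13 with IL-33, and Sort1, a sorting receptor gene, was at -1.93, -1.48 and -0.75 in the same conditions. Of the higher genes, the mannosidase gene Man1a was at 2.17, 2.30 and 2.04, Arhgef4 of chromosome 1 at 1.19, 0.93 and 1.61, Entpd4 at 0.94, 0.87 and 1.70, and Hs3st3b1 at 1.05, 1.10 and -0.09; the fifth was Gfi1, given above. These genes were singled out after their values were seen.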
